A study of Mus musculus with 62 samples.

Results

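Transcripts of 7 genes of the growth hormone and prolactin axes were followed library by library: the hormone genes Gh, Prl and Pomc, the receptor genes Ghr and Prlr, and the growth factor gene Igf1 with its receptor gene Igf1r. They were found by gene name and were 7 of the 53975 gene identifiers in the long-RNA expression tables. The genes were chosen by the 6-month values, in which hormone transcripts were high in APP and low in WT libraries, so every 6-month comparison below is a description without a test, and Gh, Prl and Pomc were tested in no mouse comparison. Expression is given as scaled TPM, which is the deposited TPM (a level per transcript length within a library) divided by a median-of-ratios factor for each library, computed separately for mouse tissue and for cultured cells.

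The mouse libraries came from pooled left and right hippocampi of single animals, 9 with the APP NL-G-F knock-in allele (APP) and 8 of the control strain C57BL/6J (WT). APP mice carry an edited App gene under its own promoter and form amyloid plaques. There were 3 APP and 2 WT mice at 3 months of age (before symptoms), 3 and 3 at 6 months (plaques and symptoms present) and 3 and 3 at 12 months (late disease). The other 14 libraries came from HT-22, a single mouse hippocampal cell line at passage 4, which received an LNA oligonucleotide for 24 hours and then 30 uM of a peptide dissolved in DMSO. Amyloid beta 1-42 followed the scramble LNA in 4 cultures and the anti-Hsf1 LNA in 3, and the reverse 42-1 control peptide followed the scramble LNA in 4 and the anti-Hsf1 LNA in 3. The labels give 150 nM for the anti-Hsf1 LNA and 50 uM for the scramble LNA, so LNA sequence and dose cannot be told apart.

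Growth hormone and prolactin are made mainly by somatotroph and lactotroph cells of the anterior pituitary, and proopiomelanocortin, the precursor of corticotropin and of melanocortins, by pituitary corticotrophs and melanotrophs and by hypothalamic neurons. Their receptors GHR and PRLR belong to the class I cytokine receptor family and signal through the kinase JAK2 and the transcription factors STAT5A and STAT5B. Growth hormone drives the production of insulin-like growth factor 1, which acts through the receptor tyrosine kinase IGF1R, and in the brain prolactin receptors are abundant in the choroid plexus.

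Several features of the libraries bear on all results. Relative depth, the ratio of deposited coverage to FPKM, was 1.42 to 3.04 in hippocampus and 0.724 to 2.60 in HT-22 libraries. Xist was at 70.2 or more scaled TPM in all 9 APP and both 3-month WT libraries and at 0.521 or less in the 6 WT libraries of 6 and 12 months, where the Y-linked Ddx3y was at 18.7 or more. In the APP against WT comparisons at 6 and 12 months and in the WT comparison of ages, genotype or age and sex therefore cannot be told apart. The same holds for the difference between the genotypes' age changes from 3 to 12 months, which uses the same WT libraries. The library of APP replicate 1 at 3 months stood apart, with a summed level of 10 hippocampal neuron markers of 395 scaled TPM against 980 to 1375 in the other 16. Among HT-22 libraries, amyloid beta with scramble replicates 3 and 4 and reverse peptide with scramble replicate 4 stood apart, with Egr1 at 216 to 321 scaled TPM against 24.2 to 41.7 in the other 11. Hsf1 transcript was at 42.9 to 52.4 scaled TPM in libraries labelled anti-Hsf1 and at 42.9 to 70.9 in scramble libraries, which overlapped. The neuron marker sum was 63.2 to 91.9 scaled TPM in HT-22 libraries, where Prox1, C1ql2, Neurod6 and Dsp were at 0 in all 14 and Homer3 (median 43.0), Man1a (30.2) and Wfs1 (11.6) were above 0 in all.

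The hormone genes lie on 3 chromosomes of GRCm38. Gh (ENSMUSG00000020713) is at chr11:106300271-106301865 on the minus strand, Prl (ENSMUSG00000021342) at chr13:27057570-27065205 on the plus strand, and Pomc (ENSMUSG00000020660) at chr12:3954951-3960642 on the plus strand. The windows from 250 bases before to 50 bases after the start of Prl and Pomc are shown because these transcripts were high in the same libraries (below, in the hormone values). The sequences are those of RefSeq on GRCm38.p6, in which 6 of the 7 genes had an entry. Capitals mark matches, on either strand, to TATNCAT, a core sequence bound by POU1F1 (Pit-1), the pituitary factor that switches on Gh and Prl.
Prl, chr13:27057320-27057619, plus strand: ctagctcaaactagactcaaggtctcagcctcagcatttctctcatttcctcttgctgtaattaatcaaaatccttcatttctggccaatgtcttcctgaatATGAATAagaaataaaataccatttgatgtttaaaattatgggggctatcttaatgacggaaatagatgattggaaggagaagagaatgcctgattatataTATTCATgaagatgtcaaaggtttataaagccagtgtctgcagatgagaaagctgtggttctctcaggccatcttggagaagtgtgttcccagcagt
Pomc, chr12:3954695-3954994, plus strand: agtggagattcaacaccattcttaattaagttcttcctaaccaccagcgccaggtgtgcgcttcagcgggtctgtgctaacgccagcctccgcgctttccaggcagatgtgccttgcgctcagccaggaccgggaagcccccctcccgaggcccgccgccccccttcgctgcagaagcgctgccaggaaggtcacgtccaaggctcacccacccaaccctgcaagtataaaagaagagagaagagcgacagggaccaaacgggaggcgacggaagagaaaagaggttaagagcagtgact
The Prl window held 2 matches, which do not overlap each other and start 148 bases (minus strand) and 47 bases (plus strand) before the transcript start. The Pomc window held 0. Of 32851 promoter windows of this length, 2903 (8.84%) held a match, so such a match is common, and it does not show that the factor was bound.

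Growth hormone transcript was detected in 13 of 17 hippocampus libraries, at levels from 0 to 18.1 scaled TPM in APP and from 0 to 11.4 in WT. At 3 months, Gh was at 4.83, 1.00 and 10.6 scaled TPM in APP replicates 1 to 3 and at 0.666 and 1.24 in WT replicates 1 and 2. At 6 months it was at 1.69, 0.309 and 18.1 in APP and listed at 0 in all 3 WT libraries, and at 12 months at 12.4, 1.27 and 0 in APP and at 11.4, 0.566 and 2.38 in WT. The APP and WT values overlapped at 3 and 12 months and did not overlap at 6 months, where the lowest APP library stood just above the WT zeros. Gh has a single annotated transcript of 862 bases, and the deposited coverage corresponded to 300 aligned bases over it in that APP library against 20364 in APP replicate 3. The depth of the 6-month WT libraries relative to the others ran from 1.42 to 1.961, and that of the 6-month APP libraries from 1.68 to 1.94.

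Prolactin transcript reached the highest level of the hormones. At 3 months, Prl was at 11.1, 1.083 and 13.3 scaled TPM in APP and at 1.77 and 0 in WT. At 6 months it was at 7.79, 2.31 and 75.7 in APP and at 0, 0 and 0.109 in WT, and at 12 months at 38.1, 14.7 and 3.59 in APP and at 5.03, 1.61 and 3.94 in WT. The groups overlapped at 3 and 12 months and did not overlap at 6 months. Over all ages, Prl ran from 1.083 to 75.7 in the 9 APP libraries and from 0 to 5.03 in the 8 WT libraries, ranges that overlapped. Within the 11 libraries with Xist it ran from 0 to 75.7. The noncoding gene Gm47888 overlaps Prl, but no library listed it above 0.204 TPM as deposited.

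Pomc had the lowest median of the 3 hormone transcripts (0.806 scaled TPM, against 1.24 for Gh and 3.59 for Prl) and was above 0 in all 17 libraries. In the 3 WT libraries of 6 months it was above both Gh and Prl. It was at 2.79, 0.226 and 1.28 scaled TPM in APP and at 0.661 and 0.655 in WT at 3 months. At 6 months the values were 0.707, 0.806 and 7.14 in APP and 0.907, 0.519 and 0.662 in WT, and at 12 months 3.76, 0.635 and 1.01 in APP and 2.71, 0.669 and 1.35 in WT. At every age the APP and WT values overlapped, and the highest value was that of APP replicate 1, 3 and 1 at 3, 6 and 12 months.

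**Figure D1:**
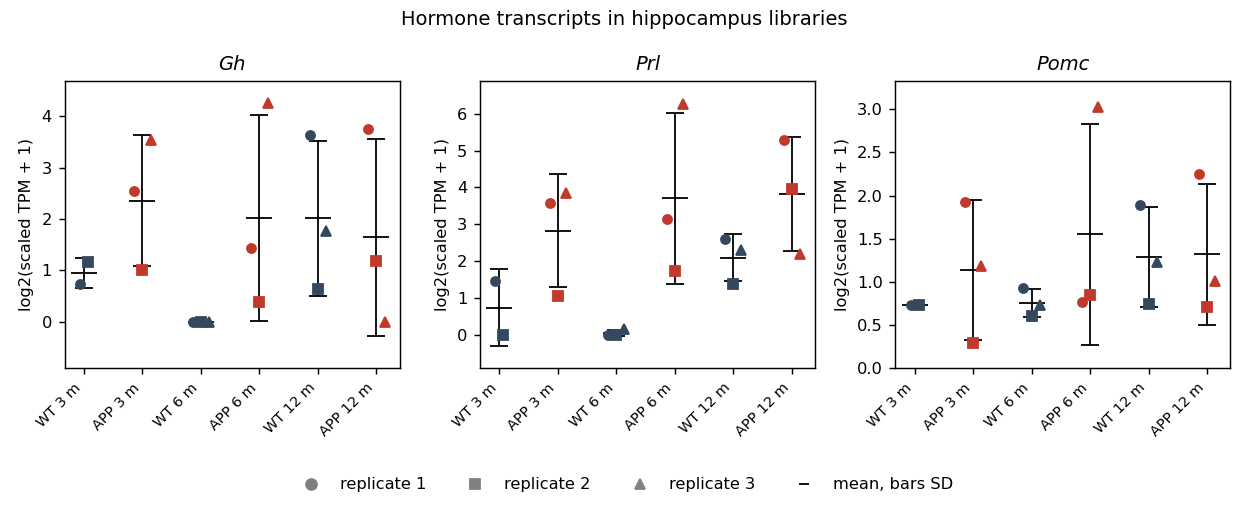
Gh, Prl and Pomc in the 17 hippocampus libraries, as log2(scaled TPM + 1) on the vertical axis, by genotype and age in months (m) on the horizontal axis, with 1 point per mouse and the mean and SD of each group in black. APP replicate 3 at 6 months is the highest point of all 3 panels, and the 3 WT libraries of 6 months lie at 0 for Gh and at or near 0 for Prl.

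The same libraries led for all 3 hormones. APP replicate 3 at 6 months ranked 1 and APP replicate 1 at 12 months ranked 2 for Gh, Prl and Pomc. WT replicate 1 at 12 months ranked 3 for Gh and 4 for Pomc but 7 for Prl. The ratio of Prl to Gh scaled TPM ran from 0 in WT replicate 2 at 3 months to 11.6 in APP replicate 2 at 12 months, and in WT replicate 1 at 12 months Prl was below Gh, at a ratio of 0.443. The hormones thus did not keep a fixed proportion to each other across libraries.

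As a description on the log2(scaled TPM + 1) scale, which understates changes of low genes, the mean of APP minus WT at 6 months was 2.02 for Gh, 3.66 for Prl and 0.79 for Pomc. At 3 months it was 1.41, 2.09 and 0.41, and at 12 months -0.37, 1.73 and 0.035. Without APP replicate 3 the 6-month differences were the lowest of those with a single library left out, at 0.91 for Gh, 2.38 for Prl and 0.057 for Pomc. The share of tested genes past the limma threshold at 6 months was 1.73% and the share whose groups did not overlap 21.3%. These 6-month values chose the genes and support nothing further.

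Most other pituitary genes were at or near 0. Of 15 anterior pituitary markers, 8 to 11 were at 0 in each mouse library. Fshb, the beta subunit of follicle-stimulating hormone, and Ghrhr, the receptor for growth hormone-releasing hormone, were at 0 in all 17 mouse libraries, and Pou1f1 was at 0 in 16, with 0.109 scaled TPM in APP replicate 2 at 3 months. Cga, the shared subunit of pituitary glycoprotein hormones, was at 0 in 16 libraries and at 0.642 in APP replicate 3 at 6 months, the library highest in Gh, Prl and Pomc. The hormone subunit genes Tshb and Lhb went the other way. Tshb was above 0 in all 17 libraries, at 0.252 to 1.003 scaled TPM, and Lhb reached 1.13 and was at 0 in 3. In the 3 WT libraries of 6 months, where Gh was at 0, Tshb was at 0.724, 0.462 and 0.496. The summed level of the list ran from 6.05 to 9.56 scaled TPM in APP and from 5.39 to 10.2 in WT at 6 months, and from 5.39 to 10.2 over all mouse libraries. Most of that sum was Trhr (1.31 to 6.19) and Crhr1 (1.098 to 4.62), which hippocampal tissue also expresses. In bulk tissue, fewer cells of a type and less RNA per cell cannot be told apart.

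Hypothalamic genes were high in some libraries with much hormone transcript and low in others. The summed level of 10 hypothalamus markers was highest in APP replicate 1 at 6 months (32.1 scaled TPM, of which the oxytocin gene Oxt gave 18.8 and the vasopressin gene Avp 7.06), where Gh ranked 7 and Prl 6 of 17. APP replicates 1 (19.8) and 3 (11.8) at 3 months came next, and these ranked 5 and 4 for Gh, 5 and 4 for Prl and 3 and 6 for Pomc. APP replicate 2 at 3 months followed (10.5), and it ranked 10 for Gh, 13 for Prl and 17, the lowest, for Pomc. The sum was 2.68 in APP replicate 3 at 6 months and 1.01, the lowest of all, in APP replicate 1 at 12 months, the libraries that ranked 1 and 2 for Gh, Prl and Pomc.

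Genes whose levels were most like those of each hormone over the 17 libraries were sought among 17737 genes, by Pearson's r of log2(scaled TPM + 1), as a description of points that share their libraries. Here and below, the genes named as most like another are those with the highest r of the 17737. How high r would reach by chance in such a search was not tested. For Gh the nearest were Pomc (r = 0.83) and Prl (r = 0.82), then A730056A06Rik (0.78), Gm16001 (0.75) and Pde7a (0.70). For Prl they were Gh (0.82), Syne2 (0.81), Pomc (0.78), Pi4k2b (0.77) and Eif1 (0.74), and for Pomc Gh (0.83), Prl (0.78), Rictor (0.75), Dlst (0.75) and Triap1 (0.74). The same measure between Gh and Ghr was 0.048 and between Prl and Prlr 0.20. By Spearman's rho, which uses ranks only, the hormone pairs were at 0.80 (Gh with Prl), 0.63 (Gh with Pomc) and 0.65 (Prl with Pomc). The 17 libraries include those whose hormone values chose the genes, so the likeness between hormones is not independent of that choice.

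The growth hormone receptor gene was detected in all 17 hippocampus libraries, from 2.48 to 6.69 scaled TPM. Ghr (ENSMUSG00000055737, chr15:3317760-3583492, minus strand) was at 6.69, 3.70 and 3.49 scaled TPM in APP and at 4.75 and 3.45 in WT at 3 months. It was at 4.71, 2.48 and 4.26 in APP and at 6.23, 4.15 and 4.32 in WT at 6 months, and at 4.10, 6.36 and 3.03 in APP and at 4.25, 4.96 and 4.68 in WT at 12 months. APP and WT overlapped at each age. The group means lay between 3.82 ± 1.182 (SD, n = 3; APP at 6 months) and 4.90 ± 1.16 (SD, n = 3; WT at 6 months), which is within the spread of single groups.

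Ghr did not pass the test in any comparison. By limma with Benjamini-Hochberg adjustment, APP differed from WT by a log2 change of 0.11 (SE 0.29, adjusted p = 0.925) at 3 months, with a 95% interval of -0.51 to 0.73. The change was -0.077 (SE 0.26, adjusted p = 0.998) at 12 months, with an interval of -0.63 to 0.48. Both values changed sign on TPM as deposited, to -0.046 and 0.042, where the median of all genes was -0.16 and 0.12. The 3-month value was -0.14 without APP replicate 1, the library with the highest Ghr. The genes most like Ghr over the 17 libraries were Zfp641 (r = 0.85), Phf5a (0.80), Gm7984 (0.80), Cfap126 (0.78) and Prrg4 (0.77). Between Ghr and Prlr, r was 0.60 and Spearman's rho 0.37. In scaled TPM, APP replicate 1 at 3 months was highest and APP replicate 2 at 6 months lowest in both genes.

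The prolactin receptor gene varied over the widest range of the receptor genes. Prlr (ENSMUSG00000005268, chr15:10177238-10349180, plus strand) was at 33.7, 7.96 and 6.79 scaled TPM in APP and at 16.5 and 8.09 in WT at 3 months. It was at 8.05, 1.17 and 9.62 in APP and at 6.29, 8.92 and 9.82 in WT at 6 months, and at 10.1, 15.3 and 11.9 in APP and at 2.94, 8.18 and 6.06 in WT at 12 months. The groups overlapped at 3 and 6 months and did not overlap at 12 months, where every APP library was above every WT library. At that age the groups did not overlap, in either direction, for 15.6% of the tested genes.

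At 12 months the APP libraries had a mean Prlr level of 12.4 ± 2.65 (SD, n = 3), and the mean of the WT libraries was 5.73 ± 2.64 (SD, n = 3). The log2 change of 1.07 (SE 0.60) did not pass limma's threshold (adjusted p = 0.815), and its 95% interval ran from -0.21 to 2.34. At 3 months the change was 0.089 (SE 0.67, limma adjusted p = 0.980), with an interval of -1.34 to 1.52, and without APP replicate 1 it was -0.60 (limma adjusted p = 0.837).

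In scaled TPM, Prlr was highest and lowest in the libraries that were highest and lowest in choroid plexus genes. APP replicate 1 at 3 months, with Prlr at 33.7, had the highest summed level of 12 choroid plexus markers (2479 scaled TPM), and APP replicate 2 at 6 months, with Prlr at 1.17, had the lowest (41.5). Transthyretin, Ttr, the most abundant choroid plexus transcript, was at 2260 and 27.2 scaled TPM in these libraries. WT replicate 1 at 12 months had the next lowest of both, with Prlr at 2.94 and a sum of 431. Prlr has 12 annotated transcripts of 564 to 9900 bases, and its TPM depends on how reads were assigned to them. On coverage per base over relative depth the highest library was the same (1.74), but WT replicate 1 at 12 months (0.0344) was the lowest and APP replicate 2 at 6 months (0.0788) the next.

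At 12 months, where Prlr was higher in each APP library, the choroid plexus sum was also higher, at 1471 to 1697 in APP and 431 to 1333 in WT. Of the 12 markers 0 passed the limma threshold there and 4 had an unadjusted p under 0.05. The part of choroid plexus tissue in the Prlr values was not tested. The genes most like Prlr over the 17 libraries were Kcne2 (r = 0.95), Enpp2 (0.94), Otx2 (0.94), Col8a1 (0.94) and F5 (0.93), of which Kcne2 and Otx2 are on the choroid plexus list.

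**Figure D2:**
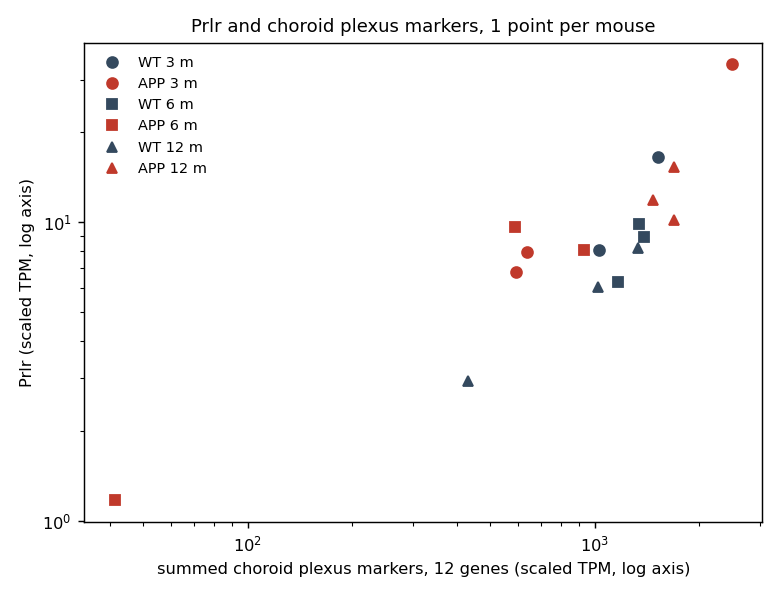
Prlr (vertical) against the summed level of 12 choroid plexus markers (horizontal), both in scaled TPM on log axes, with 1 point per mouse, colour for genotype and shape for age. APP replicate 1 at 3 months is at the upper right (2479 and 33.7) and APP replicate 2 at 6 months at the lower left (41.5 and 1.17).

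Insulin-like growth factor 1 transcript was low and even. Igf1 (ENSMUSG00000020053, chr10:87858265-87937042, plus strand) was at 3.53, 2.85 and 2.70 scaled TPM in APP and at 2.14 and 3.11 in WT at 3 months, and at 2.03, 2.81 and 2.52 in APP and at 2.08, 2.46 and 1.79 in WT at 6 months. At 12 months it was at 2.84, 3.39 and 3.34 in APP and at 2.15, 2.88 and 1.91 in WT. The groups overlapped at all ages, at 12 months by a single pair of libraries.

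Igf1 did not pass limma's threshold at 3 months (log2 change 0.16, SE 0.19, interval -0.24 to 0.56, adjusted p = 0.782). At 12 months the change was 0.35 (SE 0.17, interval -0.0094 to 0.70), with an unadjusted limma p of 0.0556 and an adjusted p of 0.736. Microglia, the brain's resident macrophages, are among the cells that make IGF1. The summed level of 12 microglia markers was 225 to 285 scaled TPM in APP and 85.0 to 96.5 in WT at 12 months, where 7 of the 12 passed the limma threshold, all higher, and its part in the Igf1 values was not tested. The genes most like Igf1 were Flt1 (r = 0.82), Zfp830 (0.81), Lamp1 (0.80), Aqp4 (0.78) and Nnt (0.77).

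The receptor gene Igf1r was the most abundant of the 7 transcripts in hippocampus, with a median of 13.6 scaled TPM. Igf1r (ENSMUSG00000005533, chr7:67952827-68233668, plus strand) was at 14.5, 17.8 and 13.6 in APP and at 13.7 and 12.6 in WT at 3 months. It was at 16.7, 16.9 and 16.9 in APP and at 10.1, 11.8 and 11.4 in WT at 6 months, and at 14.5, 13.5 and 13.4 in APP and at 11.2, 12.4 and 14.03 in WT at 12 months. The groups overlapped at 3 and 12 months and did not overlap at 6 months, where the log2 difference of 0.56 belongs to the contrast that chose the genes.

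Igf1r did not pass the limma threshold at 3 months (log2 change 0.19, SE 0.12, interval -0.073 to 0.46, adjusted p = 0.557) or at 12 months (0.13, SE 0.11, interval -0.10 to 0.37, adjusted p = 0.930). Over all ages it ran from 13.4 to 17.8 in the 9 APP libraries, all with Xist, and from 10.1 to 14.03 in WT. The 2 WT libraries with Xist, at 13.7 and 12.6, were above 5 of the 6 WT libraries without it (10.1 to 12.4) and below the other, at 14.03. The genes most like Igf1r were Kif1b (r = 0.91), Dido1 (0.89), Kcnq3 (0.87), Wwc1 (0.86) and Hipk2 (0.86).

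**Figure D3:**
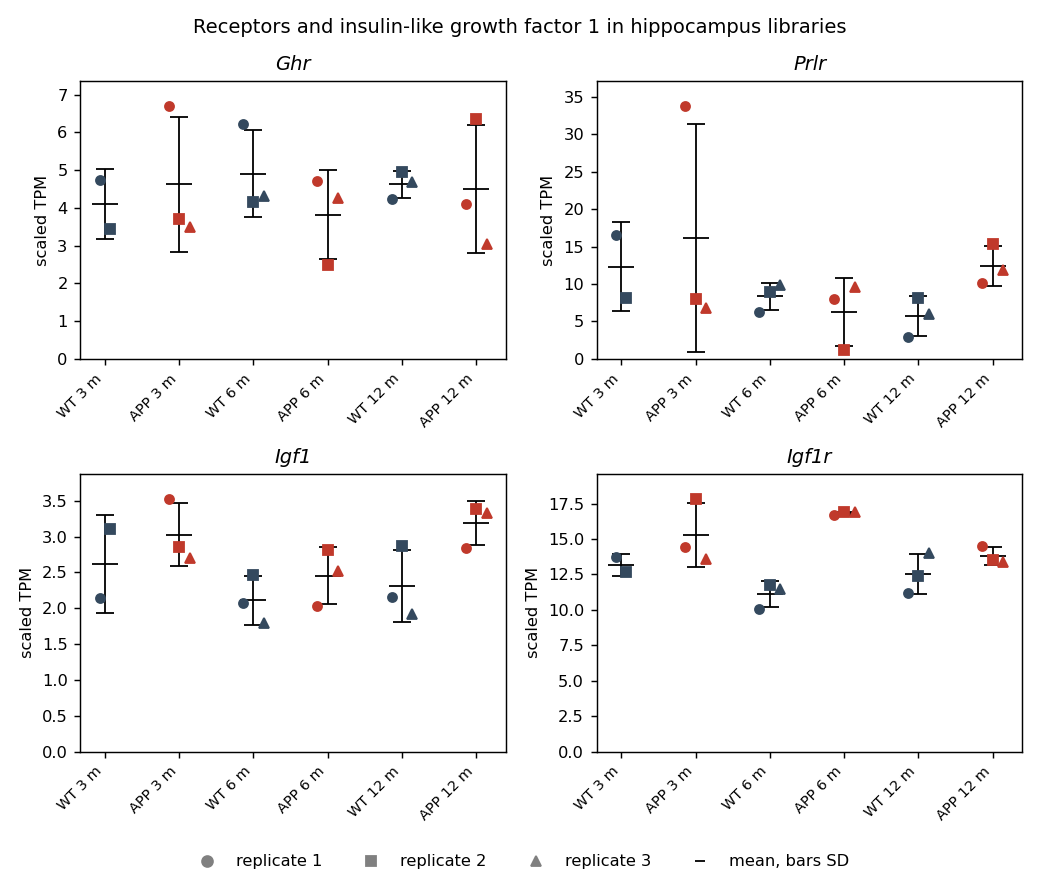
Ghr, Prlr, Igf1 and Igf1r in the 17 hippocampus libraries, in scaled TPM (vertical) by genotype and age in months (horizontal), with 1 point per mouse and the mean and SD of each group in black. Igf1r at 16.7 to 16.9 in the 3 APP libraries of 6 months lies above the 10.1 to 11.8 of WT, and Prlr of APP replicate 1 at 3 months (33.7) stands above all other points.

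None of the 4 tested genes (Ghr, Prlr, Igf1, Igf1r) passed the limma threshold at 3 months, at 12 months or between ages, and 0 had an unadjusted p under 0.05 in these comparisons. The share of all 17737 tested genes that passed was 0.304% at 3 months, 0.434% at 12 months, 0.062% in WT at 12 against 3 months, 3.28% in APP at 12 against 3 months and 0.0733% in the difference of these age changes. At an unadjusted p under 0.05 these shares were 13.4%, 7.02%, 8.29%, 16.5% and 10.1%. The APP against WT and age comparisons share libraries. Of the 4 tested genes, Prlr had the largest age change in WT, -0.99 (SE 0.67, limma adjusted p = 0.736), with an interval of -2.42 to 0.43. In APP, Prlr changed with age by -0.017 (SE 0.60, limma adjusted p = 0.993), and by 0.67 (limma adjusted p = 0.660) without APP replicate 1 at 3 months. The Prlr difference between the genotypes' age changes was 0.98 (SE 0.90, limma adjusted p = 0.782), and 1.66 (limma adjusted p = 0.525) without that library.

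Of 55 other genes of these pathways, 35 were abundant enough for the mouse test. None passed at 3 months or at 12 months, where 6 and 6 had an unadjusted limma p under 0.05. Their median log2 change was -0.039 at 3 months and 0.0014 at 12 months, against 0.0039 and -0.0047 over all tested genes.

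Among the upstream regulators, the growth hormone-releasing hormone gene Ghrh was at 0 in 16 of 17 libraries and its receptor gene at 0 in all. The gene of the growth hormone inhibitor somatostatin, Sst, which hippocampal interneurons express, had a median of 118 scaled TPM (56.5 to 169), and its receptor genes Sstr1 and Sstr4 medians of 7.46 and 17.7. These genes, like those named below for HT-22, were chosen after their values were seen.

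Between ages, 3 of the pathway genes passed. Igfbp7, which encodes a low-affinity binding protein of insulin-like growth factors, fell in WT from 7.85 ± 0.25 (SD, n = 2) scaled TPM at 3 months to 3.56 ± 0.34 (SD, n = 3) at 12 months, a log2 change of -0.96 (limma adjusted p = 0.0157). It was 1 of 35, against a share of 0.062% of all genes. The call was lost without WT replicate 1 or 2 at 3 months or replicate 1 or 2 at 12 months (limma adjusted p 0.0625 to 0.159), with only the 2 groups compared in the fit (0.254) and with a replicate block (0.0593). In APP its change was -0.47 (limma adjusted p = 0.0541), and the difference between the genotypes was 0.48 (limma adjusted p = 0.391).

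In APP, 2 of 35 pathway genes passed between 3 and 12 months, against 3.28% of all genes (0 of 35 and 1.6% on TPM as deposited). In the same comparison 9 of 12 microglia markers rose by the limma test, as did 3 of 10 hippocampal neuron markers (Homer3, Fibcd1 and C1ql2). The microglia sum was 70.9 to 80.7 scaled TPM at 3 months and 225 to 285 at 12 months, and the neuron sum 395 to 1178 and 1175 to 1204. Their part in the changes below was not tested. Igfbp5, another binding protein gene, rose from 33.8 ± 3.99 (SD, n = 3) to 52.8 ± 4.99 (SD, n = 3), a log2 change of 0.63 (limma adjusted p = 0.0160). Pcsk2, which encodes a convertase that cleaves proopiomelanocortin, fell from 89.2 ± 4.92 (SD, n = 3) to 64.0 ± 5.59 (SD, n = 3), a log2 change of -0.47 (limma adjusted p = 0.0410). The Igfbp5 call was lost without APP replicate 1 at 3 months or replicate 1 or 2 at 12 months (limma adjusted p 0.0521 to 0.0727), and the Pcsk2 call without any single library of APP at 3 or 12 months or WT at 12 months, without APP replicate 3 at 6 months or without WT replicate 1 at 6 months (0.0502 to 0.152). With only the 2 groups compared in the fit neither passed (Igfbp5 0.0825, Pcsk2 0.114), and with a replicate block Igfbp5 passed (0.0251) and Pcsk2 did not (0.0611).

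In HT-22 cells the hormone genes and the prolactin receptor gene were not detected. Gh, Prl, Pomc and Prlr were listed at 0 in all 14 libraries. Of the 12 choroid plexus markers, 6 or 7 were at 0 in each HT-22 library, Ttr, Kl, Otx2 and Kcne2 among those at 0 in all 14. Others were not: the water channel gene Aqp1 (median 49.1 scaled TPM), Steap1 (17.6), Calml4 (9.06), Kcnj13 (2.15) and Slc4a5 (0.340) were above 0 in all 14.

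The growth hormone receptor gene, by contrast, was abundant. Because scaling was done within each system, levels were compared on TPM as deposited, untested. The median Ghr level was 138 TPM in the 14 HT-22 libraries (66.0 to 170) and 4.10 in the 17 hippocampus libraries (2.79 to 7.13), a ratio of 33.5. Ghr has 10 annotated transcripts of 472 to 4175 bases, and its TPM depends on how reads were assigned to them. On deposited coverage per base divided by relative depth, the medians were 3.26 and 0.166, a ratio of 19.6.

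Igf1r was also higher in HT-22 libraries, with a median of 49.2 TPM against 14.5, a ratio of 3.39 (2.47 on coverage). Igf1 was lower, at 1.296 TPM against 2.63, a ratio of 0.493 (0.318 on coverage). The order of the 3 detected genes depended on the quantity. By median TPM it was Ghr, Igf1r, Igf1 in HT-22 and Igf1r, Ghr, Igf1 in hippocampus. By median coverage per base over relative depth, Igf1r (6.605) was above Ghr (3.26) and Igf1 (0.254) in HT-22, and Igf1r (2.67) and Igf1 (0.799) were above Ghr (0.166) in hippocampus.

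Genes of the receptors' signalling chain differed in both directions. Stat5a and Stat5b, the transcription factors activated by growth hormone and prolactin, had medians of 21.8 and 27.1 TPM in HT-22 and 0.795 and 4.80 in hippocampus. The feedback inhibitor genes Socs3 and Cish were at medians of 22.8 and 7.12 TPM in HT-22 and 0.634 and 1.12 in hippocampus. Socs2, whose product is a feedback inhibitor of growth hormone signalling, had the opposite pattern, at 0 in 10 of 14 HT-22 libraries and at a median of 10.8 TPM in hippocampus.

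Of the growth factor's relatives, Igf2 had a median of 0 TPM in HT-22 and 23.2 in hippocampus, and the binding protein genes Igfbp2, Igfbp3 and Igfbp5 were at 0 in all 14 HT-22 libraries against medians of 26.5, 4.25 and 39.5. Igfbp6 was higher in HT-22, at 71.4 TPM against 7.32.

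**Figure D4:**
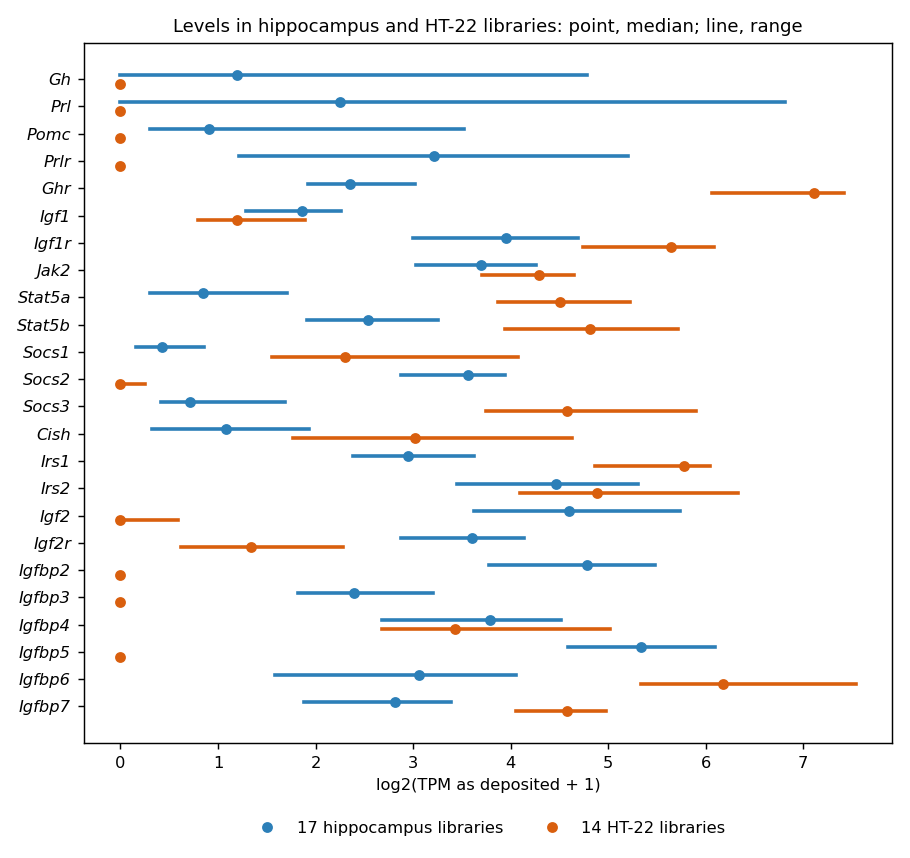
Levels of the 7 genes and 17 pathway genes as log2(TPM as deposited + 1) (horizontal) in the 17 hippocampus and 14 HT-22 libraries, with the median as a point and the range as a line. Ghr is at a median of 138 TPM in HT-22 against 4.10 in hippocampus, and Gh, Prl, Pomc and Prlr lie at 0 in HT-22.

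Of Ghr, Igf1 and Igf1r, 0 passed the threshold with either peptide or LNA. Ghr was at 138, 125, 122 and 106 scaled TPM with amyloid beta and scramble LNA and at 140, 144, 142 and 96.9 with reverse peptide and scramble LNA. With the anti-Hsf1 LNA it was at 130, 134 and 99.7 (amyloid beta) and at 113, 139 and 129 (reverse peptide). All 4 groups overlapped. In scramble cultures the change with amyloid beta was -0.079 (SE 0.15, interval -0.39 to 0.24, limma adjusted p = 0.962), which was 0.086 on TPM as deposited, and -0.11 (SE 0.13, limma adjusted p = 0.876) without the 3 libraries of high Egr1.

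Igf1 was at 1.33, 1.056, 2.24 and 1.46 scaled TPM with amyloid beta and scramble, and at 0.726, 1.0998, 1.35 and 1.51 with reverse peptide and scramble. With anti-Hsf1 it was at 1.39, 0.891 and 1.11 (amyloid beta) and at 0.952, 1.298 and 1.49 (reverse peptide). The groups overlapped, and the amyloid beta change in scramble cultures was 0.21 (SE 0.21, interval -0.25 to 0.67, limma adjusted p = 0.953).

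The Igf1r values of amyloid beta with anti-Hsf1 lay below those of the other 3 groups. Igf1r was at 47.8, 44.8, 55.5 and 53.5 scaled TPM with amyloid beta and scramble and at 40.2, 40.6 and 40.4 with amyloid beta and anti-Hsf1, which did not overlap, as in 8.54% of the tested genes. With the reverse peptide it was at 42.5, 46.2, 47.9 and 52.8 (scramble) and at 46.8, 44.2 and 44.5 (anti-Hsf1), which overlapped each other. Among anti-Hsf1 cultures the 2 peptide groups did not overlap either, as in 18.4% of the tested genes, and the change with amyloid beta was -0.16 (SE 0.11, interval -0.38 to 0.073, limma adjusted p = 1.0). The change with anti-Hsf1 in amyloid beta cultures was -0.31 (SE 0.10, interval -0.52 to -0.093), with an unadjusted limma p of 0.00841 and an adjusted p of 0.457. Without the 3 libraries of high Egr1, of which 2 are in this scramble group, it was -0.19 (SE 0.080, limma adjusted p = 0.627).

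Of the 3 genes tested in HT-22 (Ghr, Igf1, Igf1r), 0 passed the limma threshold in any of the 4 pairwise comparisons or the interaction, and 1 (Igf1r, above) had an unadjusted p under 0.05. The share of 17207 tested genes that passed was 0.0232% for anti-Hsf1 against scramble with amyloid beta and 0% in the other 3 pairwise comparisons and the interaction. At an unadjusted p under 0.05 the shares were 5.03% and 4.58% for amyloid beta (scramble, anti-Hsf1), 3.6% and 9.03% for anti-Hsf1 (reverse peptide, amyloid beta) and 5.18% for the interaction. On TPM as deposited, where the median gene was lower by -0.62 with anti-Hsf1 in amyloid beta cultures and 50.7% of genes passed, Ghr (-0.74, limma adjusted p = 0.00750) and Igf1r (-1.01, limma adjusted p = 0.000963) passed as well. So did Ghr (-0.67) and Igf1r (-0.73) for amyloid beta with anti-Hsf1, beside 24.3% of genes, and Igf1r (-0.98) in the interaction, beside 25.3%. Of the 55 pathway genes 23 were tested and 0 passed in each pairwise comparison by limma, with 0 and 1 at an unadjusted p under 0.05 for amyloid beta (scramble, anti-Hsf1) and 1 and 4 for anti-Hsf1 (reverse peptide, amyloid beta).

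**Figure D5:**
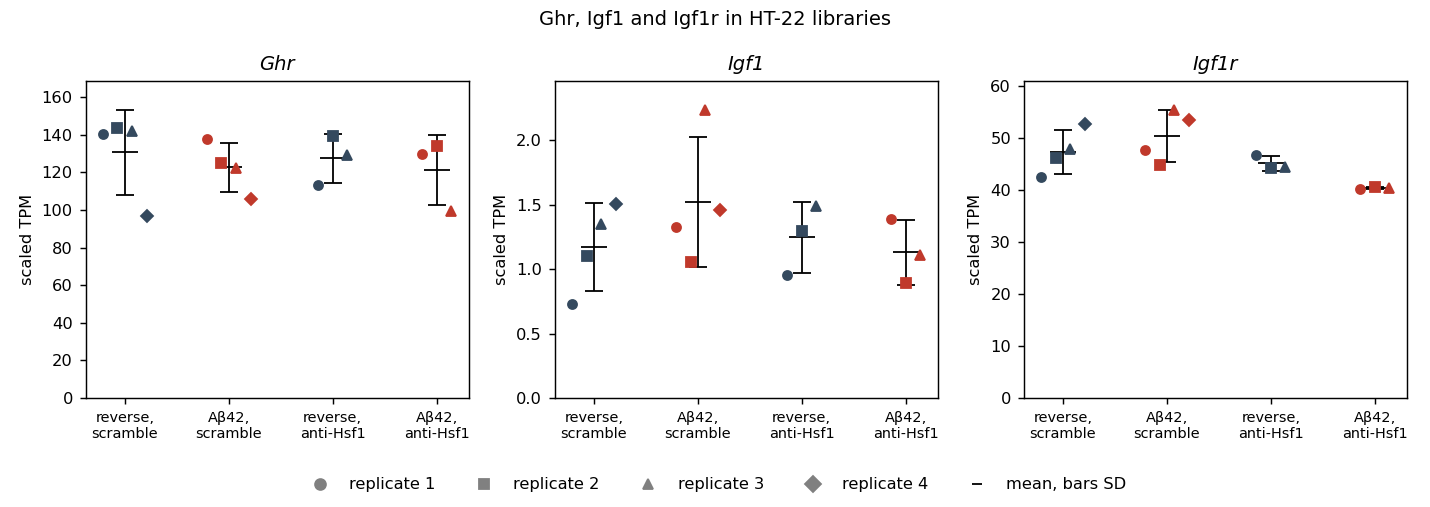
Ghr, Igf1 and Igf1r in the 14 HT-22 libraries, in scaled TPM (vertical) by peptide (Aβ42 is amyloid beta 1-42) and LNA (horizontal), with 1 point per culture and the mean and SD of each group in black. The lowest Ghr value, 96.9, is reverse peptide with scramble replicate 4, and the 3 Igf1r values of amyloid beta with anti-Hsf1 lie at 40.2 to 40.6.

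Prolactin has many mouse relatives that are expressed in placenta. Of 25 genes of this family (named Prl with a digit, a letter and digits), 23 were at 0 in all 17 hippocampus libraries and 21 at 0 in all 14 HT-22 libraries, and 2 reached 1 TPM in any library, Prl2c2 and Prl2c3. Prl2c2 was at 3.70 and 3.06 scaled TPM in replicates 3 and 4 of amyloid beta with scramble and at 5.19 in replicate 4 of reverse peptide with scramble, the 3 libraries of high Egr1. In the other 11 it was at 0 in 7 and at most at 1.94. Prl2c3 reached 1.083 scaled TPM in 1 library. Prl2c2 and Prl2c3 are near-identical copies, so the division of reads between them is uncertain, and the relative depth of the 3 libraries was 1.64, 1.20 and 2.60, above the HT-22 median in each case.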

How the data were processed

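Long RNA was sequenced in 17 mouse hippocampus and 14 HT-22 libraries; the short-RNA libraries were not used here. Per the labels' protocols, ribosomal RNA was depleted before library preparation. Per the submitters' processing notes the tools included HISAT2 2.1.0 and StringTie 1.3.4d with mm10 or GRCm38; whether counting used strand is not stated in these sources. The authors deposited per-gene TPM, FPKM and coverage (signal per base) for each library, with no counts, so precision rests on replicates. TPM was summed per gene identifier and divided by median-of-ratios factors within each system. limma 3.58.1 (R 4.3.3; trend and robust) was fitted to log2(scaled TPM + 1) for genes with a mean of at least 1, with all groups of a system sharing 1 spread, and p-values were adjusted over all tested genes (threshold 0.05); it was tested on simulated data. Relative depth is the ratio of coverage to FPKM. The 7 genes, the pathway lists and the marker lists were chosen with earlier results of these data known. Genes named are the 7, pathway genes past the threshold, the 5 genes most like each of the 7 and prolactin relatives at 1 TPM or more. Also named are marker genes and other pathway genes, the latter chosen after their values were seen. Intervals are 95%, from limma's moderated degrees of freedom.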

Additional observations from a re-analysis of the deposited data

Results flagged for a closer look

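Ghr in HT-22 cultures with reverse peptide and scramble LNA had a library far below the others. Replicate 4 was at 96.9 scaled TPM against 140, 144 and 142 in replicates 1 to 3, and the gap was 0.929 of the group's range. The cutoff used to flag such a library is passed by chance in about 1 in 20 groups, and this gap lay beyond that cutoff. It is among the 3 libraries of high Egr1 and has the highest relative depth of the HT-22 libraries (2.60).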

How the results depend on the processing

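Without counts, precision could be judged from replicates only, and 2 WT mice at 3 months and 3 in most groups limit it. Alternatives were TPM as deposited, quantile normalisation, pseudocount 0.1, other filters, only the groups compared, a replicate block, single libraries left out and, chosen after seeing the data, 11 HT-22 libraries. Of Ghr, Prlr, Igf1 and Igf1r, 0 passed at 3 months, at 12 months, between these ages or in their interaction under any of these; the 6-month contrast was not tested. On TPM as deposited, 2 of the 7 genes and 4 pathway genes passed for amyloid beta with anti-Hsf1, 2 and 16 for anti-Hsf1 with amyloid beta, and 1 of the 7 in the HT-22 interaction, where the median of all genes moved by -0.52, -0.62 and -0.68. Pathway calls in APP at 12 against 3 months (2) became 0 on TPM, 1 with no filter and 0 with only these groups; the 1 call in WT became 0 with only these groups. With pseudocount 0.1 the 6-month differences were 4.57 for Gh and 6.47 for Prl.

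A pairing of samples by replicate number was not shown: same-number correlations of deviations had a median of -0.0058 in mouse and 0.013 in HT-22. In HT-22 they ran from -0.22 to 0.58, and those between different numbers from -0.55 to 0.56, so a pairing was not excluded either. With a replicate block, pathway calls between ages fell to 0 in WT and 1 in APP, and 0 of the 7 genes passed.

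Small differences changed sign, and the cause was not tested. On TPM as deposited, Ghr was -0.046 and Prlr -0.087 at 3 months, and Ghr was 0.042 at 12 months, -0.12 in WT between ages and 0.087 in the genotype by age interaction, where Igf1r was 0.26. The median of all genes on that scale was -0.16 at 3 months, 0.12 at 12 months, -0.29 in WT between ages and 0.29 in the interaction. In HT-22, also on TPM as deposited, Ghr was 0.086 for amyloid beta with scramble and 0.012 for anti-Hsf1 with reverse peptide. The medians of all genes there were 0.15 and 0.032. Prlr in APP between ages was 0.0025 with pseudocount 0.1. With quantile normalisation Igf1 was 0.060 for amyloid beta with anti-Hsf1 and -0.0023 for anti-Hsf1 with reverse peptide, and Ghr for anti-Hsf1 was 0.10 with reverse peptide and 0.0075 with amyloid beta. With 11 libraries the Ghr interaction in HT-22 was 0.032.

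With single libraries left out, Ghr ranged from -0.14 to 0.29 at 3 months, -0.31 to 0.12 at 12 months, -0.033 to 0.34 in WT and -0.27 to 0.22 in APP between ages, and -0.42 to 0.063 in the interaction. Prlr ranged from -0.60 to 0.56 at 3 months and -0.41 to 0.67 in APP between ages. Igf1 ranged from -0.034 to 0.35 at 3 months, -0.32 to 0.068 in WT between ages and -0.0083 to 0.38 in the interaction, and Igf1r from -0.15 to 0.0005 in WT between ages and from -0.13 to 0.051 in the interaction. In HT-22, Ghr ranged from -0.16 to 0.053 for amyloid beta with anti-Hsf1, -0.16 to 0.058 and -0.10 to 0.11 for anti-Hsf1 with reverse peptide and amyloid beta, and -0.083 to 0.13 in the interaction. Igf1 ranged from -0.17 to 0.0061 for amyloid beta with anti-Hsf1 and from -0.048 to 0.16 for anti-Hsf1 with reverse peptide. Pathway calls ranged from 0 to 1 at 3 months, 0 to 1 in WT and 0 to 4 in APP between ages. The 6-month differences ranged from 0.91 to 2.84 for Gh, 2.38 to 4.65 for Prl and 0.057 to 1.184 for Pomc.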
